A study of Homo sapiens with 6 samples.

Results

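The genes described here are the ligands and receptors of axon guidance: the semaphorins with their plexin and neuropilin receptors, the netrins with the DCC family and UNC5 receptors, the Slits with the Robo receptors, and the ephrins with the Eph receptors. They were taken by gene symbol, with no expression value in the rule, which gave 63 of the 31122 genes in the deposited count table, 32 ligands and 31 receptors in 10 families. The rule and the gene lists used below were chosen with earlier results of these data known. Polyadenylated RNA was sequenced from MDA-MB-468, an established cell line from a triple-negative (basal-like) breast cancer. One group of 3 libraries has the genotype label WT and comes from untreated parental cells grown in wells of 1 plate, and the other group of 3 has the label GPR52 KO and comes from 3 populations made with Cas9 and the same guide, sgRNA1, targeting GPR52. That gene encodes an orphan receptor of the G protein-coupled class. The labels leave unsaid whether these populations are clones or pools. A non-targeting guide was not part of the analysed libraries, and what goes with making the populations (the nuclease, selection, passages) cannot be told apart from the genotype label.

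Axon guidance proteins were described first in growing neurons, where secreted or membrane-bound ligands attract or repel the growth cone. The receptors act mainly through small GTPases, kinases and the actin cytoskeleton, and many ligands are cleaved or need a coreceptor. The same families are expressed in mammary and other epithelia, where they are known for roles in cell adhesion, sorting and the shape of ducts, and several are studied as regulators of tumour cell migration and of blood vessels.

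The targeted gene went against its label. GPR52 had 9, 1 and 0 counts in the parental-labelled libraries and 645, 694 and 724 counts in the KO-labelled libraries, a log2 fold change of 7.70 (SE 0.35, edgeR adjusted p = 4.1e-06). The transcript level of an edited gene does not show whether its protein is made, and the 2 groups are called parental-labelled and KO-labelled throughout. Libraries held 25637794 to 31692454 counts, so that 1 count was worth 0.0321 to 0.0397 CPM (counts per 1e+06 counts), and the 63 genes together held 0.263 to 0.277% of the parental-labelled counts and 0.273 to 0.316% of the KO-labelled counts. All 8 epithelial and all 7 basal markers on fixed lists were present above 1 CPM, with summed levels of 6589 to 7271 CPM and 5503 to 6396 CPM for the epithelial list and 6219 to 6526 CPM and 6237 to 9920 CPM for the basal list in the parental-labelled and KO-labelled groups. EGFR made up most of the basal sum, at means of 5114 and 5931 CPM, and did not pass the test (edgeR adjusted p = 0.443). KRT5, KRT14, KRT6B and FOXC1 were higher (log2 fold changes of 0.51, 1.90, 3.09 and 0.34), and KRT17 and TP63 did not pass. On the epithelial list EPCAM was higher (0.46), and CDH1, KRT18 and KRT7 were lower (-0.42, -0.46 and -0.33). KRT8, KRT19, ESRP1 and CLDN4 did not pass the test. Of 5 luminal and hormone receptor markers 4 were over 1 CPM, with sums of 271 to 276 CPM and 207 to 252 CPM. Of these, ESR1 (log2 fold change -1.75, edgeR adjusted p = 0.0010) and FOXA1 (-0.52, 0.0141) were lower, while ERBB2 and GATA3 did not pass the test. Of 7 endothelial markers 4 had counts and none averaged over 1 CPM across all 6 libraries (CDH5 averaged 1.40 CPM in the parental-labelled and 0.535 CPM in the KO-labelled group), with sums of 2.14 to 2.48 CPM and 1.03 to 1.51 CPM. Neural markers summed to 10.2 to 11.7 CPM and 9.41 to 12.3 CPM, with 1 of 7 over 1 CPM on the same mean. Fibroblast markers summed to 9.10 to 11.3 CPM and 24.6 to 32 CPM, with 2 of 7 over 1 CPM. These were COL1A1, at means of 7.31 and 25.5 CPM, and FAP, at 2.81 and 1.83 CPM. COL1A2 had 1 and 0 counts over the groups. Leukocyte markers summed to 27.8 to 37.6 CPM and 3.43 to 4.6 CPM, with 1 of 7 over 1 CPM. That marker was CD14, at means of 30.7 and 3.45 CPM, while PTPRC averaged 0.253 and 0.0361 CPM. The part of fibroblasts or leukocytes in the results below was not tested.

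Both neuropilins, the netrin NTN4, the receptor EPHB1 and the semaphorins SEMA3E and SEMA3G fell in the KO-labelled libraries, while the receptors NEO1, PLXNB3, ROBO3, UNC5A and UNC5B and the ligands SEMA4B, SEMA6B and EFNB3 rose. Most other plexins and Eph receptors with high counts did not pass the test. Of the 63 genes, 53 passed the filter on low counts, and 26 of those (49.1%) changed at an adjusted p under 0.05, 15 higher and 11 lower. Over all tested genes 40.8% changed, 21.0% higher and 19.8% lower, so the share that changed was near the background. Changes of over 2-fold were found for 17 of the 53 (32.1%), 11 higher and 6 lower, against 12.1% of all tested genes. The 2 groups did not overlap for 30 of the 53 (56.6%), against 54.4% of all tested genes. The median log2 fold change was 0.17 over the 53 genes and 0.01 over all tested genes, and the median size of the change was 0.40 and 0.32. The filter bears on these counts: 5 of the genes (EPHB1, PLXNC1, ROBO3, SLIT3 and UNC5C) passed it through 1 group only, so they had to differ. Their other group lay under 0.359 CPM, which 10 counts are worth in the median library. EFNA2 passed it only with the KO-labelled group, as its parental-labelled libraries stood at 0.264, 0.516 and 0.257 CPM. The p-values of these genes support nothing by themselves.

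**Figure D1:**
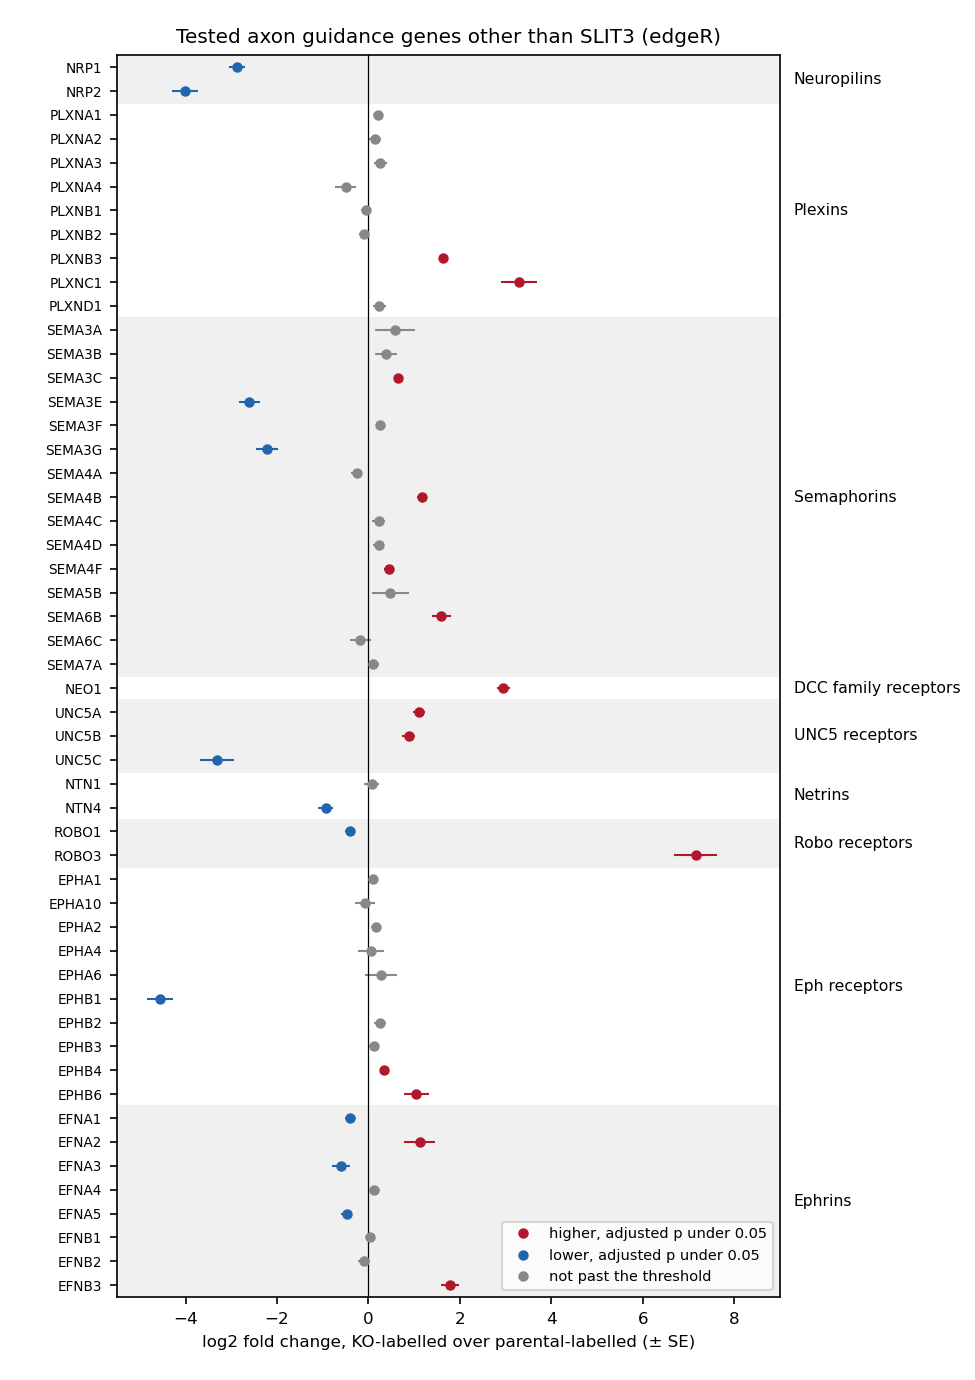
Log2 fold change (x axis, KO-labelled over parental-labelled, with its SE as a line) of 52 tested axon guidance genes, grouped by family and coloured by the test. SLIT3 is left out because it had no count in the parental-labelled group. NRP1, NRP2 and EPHB1 lie far to the left, ROBO3 and NEO1 far to the right, and 27 genes in grey did not pass the threshold.

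Among the ligands 26 were tested, and 7 rose and 6 fell. Among the receptors 27 were tested, and 8 rose and 5 fell. By family, the tests called 4 semaphorins higher and 2 lower of 15, 2 plexins higher of 9, both neuropilins lower, 2 of 3 UNC5 receptors higher and 1 lower, 2 Eph receptors higher and 1 lower of 10, and 2 ephrins higher and 3 lower of 8. NEO1 was the tested gene of the DCC family, NTN4 the netrin that passed the threshold of 2 tested, and ROBO1 and ROBO3 changed in opposite directions.

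The promoters of NEO1, ROBO3, NRP2 and EPHB1 are shown because these genes made some of the largest rises and falls while their chromosomal neighbours, described further on, changed far less. Each is the run of 250 bases before the gene's start in RefSeq (GRCh38.p14, a later build than the authors' hg19), 5′ to 3′ on the plus strand, in lower case with CG dinucleotides in capitals. NEO1 lies at chr15:73051652-73051901, ROBO3 at chr11:124875932-124876181, NRP2 at chr2:205682251-205682500 and EPHB1 at chr3:134795010-134795259.
NEO1: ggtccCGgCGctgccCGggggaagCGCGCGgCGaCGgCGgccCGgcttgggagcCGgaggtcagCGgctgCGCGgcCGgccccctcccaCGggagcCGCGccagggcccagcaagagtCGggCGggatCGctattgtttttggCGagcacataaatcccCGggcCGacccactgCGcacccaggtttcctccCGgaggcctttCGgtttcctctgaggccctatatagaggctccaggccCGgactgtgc
ROBO3: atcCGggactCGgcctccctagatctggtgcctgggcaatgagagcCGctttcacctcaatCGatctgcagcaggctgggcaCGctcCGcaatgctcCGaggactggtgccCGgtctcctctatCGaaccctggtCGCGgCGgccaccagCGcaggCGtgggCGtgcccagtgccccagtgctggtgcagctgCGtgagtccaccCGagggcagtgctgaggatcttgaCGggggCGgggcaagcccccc
NRP2: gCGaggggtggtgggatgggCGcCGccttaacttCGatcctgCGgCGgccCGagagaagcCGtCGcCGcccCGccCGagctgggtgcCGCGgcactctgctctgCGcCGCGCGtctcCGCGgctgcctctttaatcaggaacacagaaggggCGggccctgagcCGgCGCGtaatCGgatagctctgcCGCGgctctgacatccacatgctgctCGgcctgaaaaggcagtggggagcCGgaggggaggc
EPHB1: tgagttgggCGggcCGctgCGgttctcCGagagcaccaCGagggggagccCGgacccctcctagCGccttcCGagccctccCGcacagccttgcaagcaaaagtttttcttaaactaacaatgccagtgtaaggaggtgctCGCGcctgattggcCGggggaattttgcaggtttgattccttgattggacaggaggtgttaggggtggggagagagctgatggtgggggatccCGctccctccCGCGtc
The NEO1 and NRP2 windows are dense in CG, with 28 and 29 dinucleotides, and 85.9% and 87.6% of all 35116 promoters in the table hold no more. The ROBO3 and EPHB1 windows hold 19 and 15 CG dinucleotides, and 67.6% and 59.0% of promoters hold no more. A promoter was found for 54 of the 63 genes, and the median was 17 CG dinucleotides over these against 11 over all promoters. Genes that rose (12 with a promoter) had a median of 17.5 and genes that fell (10) of 18.5. Genes that did not pass the test (24) had a median of 19, so these medians were close to each other. For 36 of the 54 genes, among them the 4 printed, bases just after the start were found in a GENCODE transcript of the gene. For the rest the window may not lie at the start of a GENCODE transcript. The letters GGGCGG, the core of the GC box, were found on either strand in 40 of the 54 windows and in 42.6% of all promoters, and in all 4 windows printed. The letters TATAAA, the core of the TATA box, were found on either strand in 1 of the 54 windows (EFNB2) and in 10.7% of all promoters. No data on binding, methylation or transcription start use were analysed here.

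Neuropilins are coreceptors with short cytoplasmic tails that bind class 3 semaphorins and also VEGF, and they signal through plexins and VEGF receptors. NRP1 stood at 95.1, 91.7 and 89.2 CPM in the parental-labelled libraries and at 9.95, 11.0 and 16.7 CPM in the KO-labelled libraries. The groups were far apart, with KO-labelled 3 the highest of its group. NRP1 was 7.32-fold lower, a log2 fold change of -2.87 (SE 0.18, adjusted p = 2.0e-05). In bulk RNA a lower level can come from fewer expressing cells or from less RNA per cell, and these cannot be told apart. NRP2, the related receptor that prefers other class 3 semaphorins, stood at 33.4, 35.4 and 32.2 CPM in the parental-labelled and at 0.904, 2.12 and 3.18 CPM in the KO-labelled libraries. All 3 KO-labelled values were far under the parental-labelled range, with the same order of libraries as for NRP1. NRP2 fell by 4.01 on the log2 scale (SE 0.28, adjusted p = 4.0e-05), a 16.1-fold lower level. Per transcript length, the summed level of the 2 neuropilins was 30.0 ± 1.20 FPKM in the parental-labelled and 5.04 ± 1.05 FPKM in the KO-labelled group (SD, n = 3), or 5.97-fold lower.

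Several ligands that bind neuropilins changed as well. SEMA3C, which signals through both neuropilins and through plexin D1, stood at 66.5, 69.7 and 60.5 CPM in the parental-labelled and 108, 108 and 91.2 CPM in the KO-labelled libraries. The groups did not overlap, and SEMA3C rose 1.56-fold (log2 fold change 0.65, SE 0.09, adjusted p = 0.0011). SEMA3E, the class 3 semaphorin that can bind plexin D1 without a neuropilin, stood at 41.7, 39.7 and 40.1 CPM against 8.40, 3.89 and 7.68 CPM. It was tightly grouped in the parental-labelled libraries and low in all 3 KO-labelled ones, a 6.09-fold fall (log2 fold change -2.61, SE 0.23, adjusted p = 9.9e-05). SEMA3G, a ligand of NRP2 known from endothelium, stood at 3.53, 3.22 and 4.24 CPM against 0.528, 0.813 and 1.0 CPM. It fell 4.67-fold without overlap between the groups (log2 fold change -2.22, SE 0.24, adjusted p = 2.6e-04). SEMA3F, a repellent ligand of NRP2, was the class 3 semaphorin with the highest level per length, 36.5 FPKM in the parental-labelled and 44.2 FPKM in the KO-labelled group on average. It did not pass the test (log2 fold change 0.26, interval 0.05 to 0.48, adjusted p = 0.0544), although its groups did not overlap. The 6 class 3 semaphorins summed to 76.0 ± 2.43 FPKM and 84.1 ± 6.34 FPKM, so their summed level moved little while 3 of them changed. VEGFA, a growth factor that binds neuropilins and no semaphorin, stood at 139, 139 and 138 CPM against 54.7, 88.1 and 118 CPM. It was lower in every KO-labelled library, with a wide spread among them (log2 fold change -0.67, SE 0.23, adjusted p = 0.0476). The VEGFA call was lost without any one parental-labelled library or KO-labelled 2 (adjusted p of 0.107 to 0.116), on the FPKM values (0.0637 with a pseudocount of 1) and relative to its neighbours (-0.38, 0.238).

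Class 4 and class 6 semaphorins are bound to the membrane and act on plexins without a neuropilin. SEMA4B stood at 34.6, 34.6 and 37.8 CPM in the parental-labelled and 79.4, 92.0 and 70.5 CPM in the KO-labelled libraries. It rose 2.26-fold, with no overlap (log2 fold change 1.18, SE 0.11, adjusted p = 1.1e-04). SEMA4F stood at 13.2, 13.2 and 11.7 CPM against 18.5, 17.3 and 16.1 CPM, higher in all 3 KO-labelled libraries by a smaller step (log2 fold change 0.45, SE 0.10, adjusted p = 0.0094). SEMA6B, a ligand of class A plexins, stood at 2.05, 2.98 and 2.73 CPM against 6.97, 6.72 and 9.57 CPM. It was low in the parental-labelled group and rose 3.01-fold (log2 fold change 1.59, SE 0.20, adjusted p = 6.2e-04). The 6 class 4 semaphorins together summed to 33.8 ± 0.682 FPKM and 48.7 ± 0.938 FPKM (SD, n = 3), with no overlap between libraries. Most of this difference was SEMA4B, at means of 10.5 and 22.5 FPKM. SEMA4A, SEMA4C and SEMA4D, the class 4 members with over 20 CPM that did not pass the test, had log2 fold changes of -0.25 (interval -0.53 to 0.03), 0.22 (-0.12 to 0.56) and 0.22 (-0.06 to 0.51).

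Plexins are the signalling receptors of the semaphorins, and they carry a GTPase-activating domain inside the cell. PLXNB3 stood at 11.9, 12.1 and 13.4 CPM in the parental-labelled and 36.3, 38.9 and 40.5 CPM in the KO-labelled libraries. Both groups were tight and far apart, and PLXNB3 rose 3.09-fold (log2 fold change 1.63, SE 0.09, adjusted p = 1.2e-05). PLXNC1, the receptor of SEMA7A, had 2, 2 and 1 counts against 15, 20 and 15 counts, a rise at very low level (log2 fold change 3.29, SE 0.39, adjusted p = 2.6e-04). With log2(FPKM + 1) values PLXNC1 no longer passed the threshold (limma adjusted p = 0.0604). It passed the filter through the KO-labelled group only, so it had to differ. PLXNA1, PLXNA2, PLXNA3, PLXNB1, PLXNB2 and PLXND1 had high counts and did not pass the test. Their log2 fold changes ran from -0.10 for PLXNB2 to 0.26 for PLXNA3, with interval bounds no lower than -0.35 and no higher than 0.59. PLXNB2, a receptor of class 4 semaphorins, had the highest level per length of all 63 genes, 98.9 FPKM in the parental-labelled and 90.7 FPKM in the KO-labelled group. The 9 plexins summed to 194 ± 6.20 FPKM and 205 ± 8.01 FPKM, and the ranges of the libraries overlapped.

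**Figure D2:**
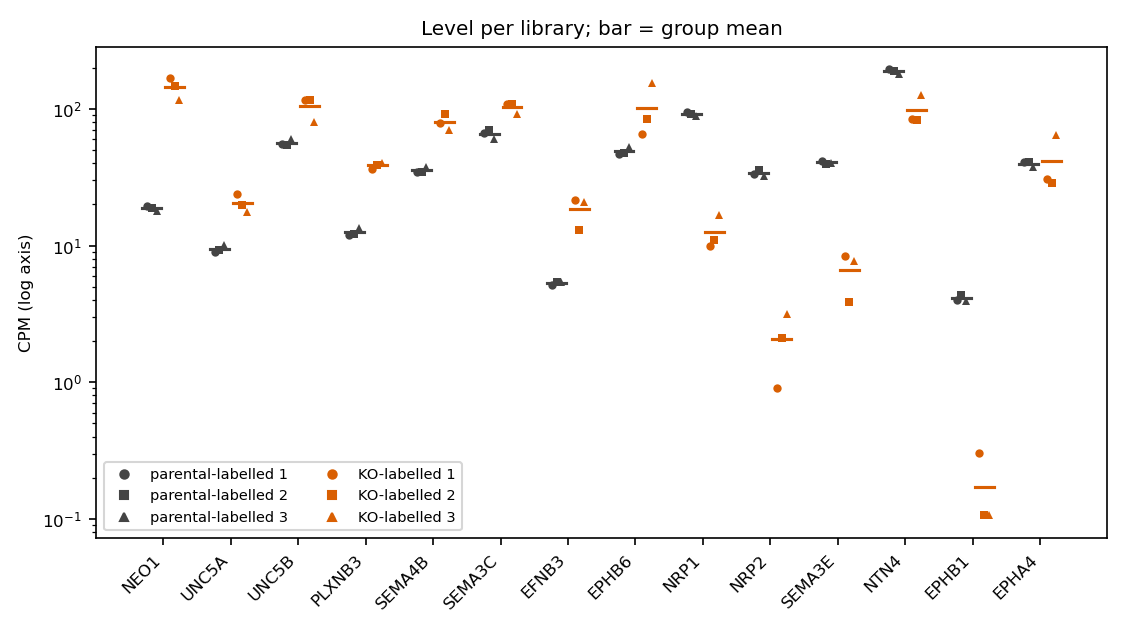
Level of 14 axon guidance genes in each library (y axis, CPM on a log scale), in grey for the parental-labelled and in orange for the KO-labelled libraries, with symbols for the library number and a bar at the group mean. The groups stand apart for every gene shown except EPHA4, where KO-labelled 3 is above and KO-labelled 1 and 2 are below the parental-labelled libraries.

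Among netrins and their receptors, NEO1, UNC5A and UNC5B rose, and NTN4 and UNC5C fell. NEO1 encodes neogenin, the DCC relative that binds netrins and the repulsive guidance molecules (RGMs). It stood at 19.3, 18.8 and 17.9 CPM in the parental-labelled and 169, 146 and 117 CPM in the KO-labelled libraries. Every KO-labelled value was over 5 times the highest parental-labelled value, and NEO1 rose 7.72-fold (log2 fold change 2.95, SE 0.14, adjusted p = 5.3e-06). DCC itself had 0 counts over the parental-labelled and 1 count over the KO-labelled libraries, so neogenin made up the DCC family at this depth, at 4.19 ± 0.529 FPKM and 30.0 ± 5.64 FPKM. RGMA, a ligand of neogenin that the symbol rule does not take in, stood at 3.07, 2.66 and 4.28 CPM against 32.4, 26.2 and 19.5 CPM. It rose as well (log2 fold change 2.95, SE 0.24, adjusted p = 6.4e-05; 2.20 relative to its neighbours), while its relative RGMB did not pass the test (log2 fold change 0.15, interval -0.06 to 0.36).

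UNC5 receptors mediate repulsion by netrins and are known as dependence receptors, which can signal for cell death when no ligand is bound. UNC5A stood at 9.04, 9.30 and 10.1 CPM in the parental-labelled and 23.8, 19.8 and 17.6 CPM in the KO-labelled libraries, a 2.15-fold rise without overlap (log2 fold change 1.10, SE 0.13, adjusted p = 4.2e-04). UNC5B, the UNC5 receptor with the highest level here, stood at 55.4, 54.8 and 59.6 CPM against 116, 116 and 80.1 CPM. KO-labelled 3 was nearest to the parental-labelled range, and UNC5B rose 1.84-fold (log2 fold change 0.88, SE 0.14, adjusted p = 0.0019). UNC5B overlaps the antisense gene UNC5B-AS1 (means of 0.531 and 1.05 CPM). The strand setting of the counting is not given in the sources used here, so reads of the pair may not be told apart. The same limit holds for other genes here with an antisense neighbour. Among them, EPHB4 overlaps SLC12A9 (36.9 and 45.7 CPM), EPHA1 overlaps ZYX (85.7 and 54.8 CPM) and PLXNA3 overlaps LAGE3 (41.1 and 48.0 CPM). UNC5C went the other way at low level, with 53, 43 and 53 counts against 8, 5 and 1 counts (log2 fold change -3.31, SE 0.37, adjusted p = 3.3e-04). Without KO-labelled 1 the UNC5C value was -3.96. UNC5C passed the filter through the parental-labelled group only, so it had to differ. Per length, the 3 UNC5 receptors summed to 9.44 ± 0.633 FPKM and 18.2 ± 3.45 FPKM.

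NTN4, a netrin of basement membranes that also binds laminin, stood at 194, 188 and 180 CPM in the parental-labelled and 84.0, 83.3 and 126 CPM in the KO-labelled libraries. KO-labelled 3 was the highest of its group and still under the parental-labelled range. NTN4 was 1.92-fold lower (log2 fold change -0.94, SE 0.16, adjusted p = 0.0022). It was the ligand with the highest level per length in the parental-labelled group, at 53.8 FPKM, and averaged 30.2 FPKM in the KO-labelled group. NTN1, the canonical attractant, was lower in level and did not pass the test (log2 fold change 0.07, interval -0.29 to 0.43). The netrins summed to 55.7 ± 3.45 FPKM and 32.6 ± 7.86 FPKM, with no overlap between the groups and most of the sum from NTN4 in both.

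Robo receptors bind Slits and mediate repulsion, and the mammalian ROBO3 is a divergent member with little affinity for Slits. ROBO3 had 4, 0 and 0 counts in the parental-labelled and 159, 228 and 212 counts in the KO-labelled libraries. It was close to absent in one group and at 5.99, 8.06 and 7.57 CPM in the other (log2 fold change 7.16, SE 0.47, adjusted p = 8.6e-06). The size of this change depends on the few parental-labelled counts: it was 10.65 without parental-labelled 1 and 6.55 without parental-labelled 3. As ROBO3 passed the filter through the KO-labelled group only, its p-value supports nothing by itself. ROBO1, the Robo receptor with the highest level per length here, stood at 115, 116 and 106 CPM against 77.8, 78.0 and 99.2 CPM. It fell 1.32-fold (log2 fold change -0.40, SE 0.11, adjusted p = 0.018), and the call was lost without parental-labelled 1, parental-labelled 2, KO-labelled 1 or KO-labelled 2 (adjusted p of 0.0535 to 0.0676) and on the FPKM values (-0.21, adjusted p = 0.115, with a pseudocount of 1). The endothelial receptor ROBO4 was under the filter, with 2 parental-labelled and 39 KO-labelled counts in all, which is 20.4 times as much after scaling (95% counting interval 5.28 to 174). SLIT3, a secreted Slit, had 0 counts in all 3 parental-labelled libraries and 24, 19 and 40 counts in the KO-labelled ones. With the parental-labelled group set to 3 counts in all, SLIT3 was at least 28.9-fold higher (adjusted p = 0.0017). Like ROBO3, it passed the filter through the KO-labelled group only. SLIT2 had 0 counts and 1 count over the groups. The Robo receptors summed to 19.4 ± 0.809 FPKM and 22.2 ± 2.64 FPKM, most of it from ROBO1 in both groups.

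**Figure D3:**
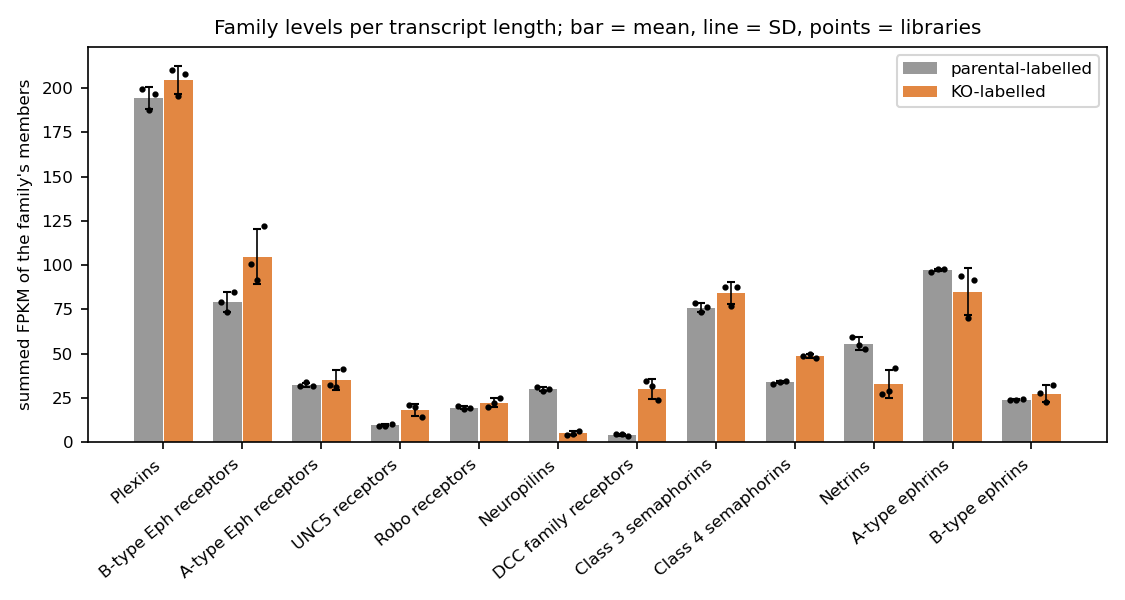
Summed level per transcript length (y axis, FPKM) of each family in the parental-labelled (grey) and KO-labelled (orange) libraries, with bars for the mean, lines for the SD and points for the 3 libraries of a group. The neuropilins, netrins and A-type ephrins were lower in every KO-labelled library. Neogenin, the UNC5 receptors, the class 4 semaphorins and the B-type Eph receptors were higher in every KO-labelled library. The plexins and the other families shown overlapped. Most of the netrin sum came from NTN4, and most of the class 4 difference from SEMA4B.

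Eph receptors are receptor tyrosine kinases that bind ephrins on neighbouring cells, and the pair signals in both directions at the contact. EPHB1 had 121, 110 and 123 counts in the parental-labelled and 8, 3 and 3 counts in the KO-labelled libraries, which is 3.99, 4.37 and 3.95 CPM against 0.301, 0.106 and 0.107 CPM. It was nearly absent from the KO-labelled group (log2 fold change -4.56, SE 0.29, adjusted p = 2.5e-05), and the value was -5.21 without KO-labelled 1. EPHB1 passed the filter through the parental-labelled group only, so its p-value supports nothing by itself. EPHB4, a receptor of ephrin-B2, stood at 84.6, 84.9 and 93.7 CPM against 113, 103 and 117 CPM, a small rise without overlap (log2 fold change 0.34, SE 0.08, adjusted p = 0.0106). Its call was lost without parental-labelled 1 or parental-labelled 2 (adjusted p = 0.0606 and 0.0617). EPHB6, a family member without kinase activity, stood at 46.8, 47.3 and 52.8 CPM against 65.9, 84.8 and 153 CPM. All 3 KO-labelled libraries were higher, with KO-labelled 3 far above the other two (log2 fold change 1.05, SE 0.27, adjusted p = 0.0169). The EPHB6 call was lost without any one of the parental-labelled libraries (adjusted p of 0.0557 to 0.0621). Per length, the B-type receptors summed to 79.2 ± 5.71 FPKM and 104.8 ± 15.6 FPKM and the A-type receptors to 32.5 ± 1.15 FPKM and 35.0 ± 5.69 FPKM.

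EPHA4, which binds ephrins of both types, shows how 1 library sets a result. It stood at 41.0, 41.0 and 37.5 CPM in the parental-labelled and 30.5, 28.6 and 64.6 CPM in the KO-labelled libraries. KO-labelled 1 and 2 were below and KO-labelled 3 was above the parental-labelled range, and the log2 fold change was 0.05 (SE 0.28, adjusted p = 0.899). Without KO-labelled 3 it was -0.43 (adjusted p = 0.0011). EPHA1, EPHA2, EPHB2 and EPHB3, the other Eph receptors with over 20 CPM, did not pass the test, with log2 fold changes of 0.10 to 0.24 and interval bounds of -0.13 to 0.54.

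Ephrins of the A type are held by a lipid anchor and those of the B type cross the membrane. EFNB3, a transmembrane ligand of B-type receptors, stood at 5.15, 5.44 and 5.43 CPM in the parental-labelled and 21.5, 13.0 and 20.8 CPM in the KO-labelled libraries. It rose 3.45-fold without overlap (log2 fold change 1.79, SE 0.20, adjusted p = 3.1e-04). EFNA1, EFNA3 and EFNA5, all of the A type, fell by small steps. EFNA1, the ephrin with the highest level per length (50.5 FPKM and 41.1 FPKM), stood at 66.2, 68.4 and 69.0 CPM against 54.1, 41.6 and 59.3 CPM (log2 fold change -0.39, SE 0.12, adjusted p = 0.0350). EFNA5 stood at 60.8, 62.7 and 60.8 CPM against 48.6, 35.9 and 47.7 CPM (log2 fold change -0.48, SE 0.12, adjusted p = 0.0129). EFNA3 stood at 5.58, 5.60 and 7.11 CPM against 4.97, 4.21 and 2.93 CPM (log2 fold change -0.60, SE 0.21, adjusted p = 0.0480). None of the 3 had overlapping groups, and none of the calls was kept on the FPKM values (limma on log2(FPKM + 1), adjusted p of 0.098 for EFNA1, 0.182 for EFNA5 and 0.113 for EFNA3). The EFNA1 call was also lost without any one parental-labelled library or KO-labelled 1 (adjusted p of 0.0578 to 0.0984), and the EFNA3 call without any one library other than KO-labelled 1 (0.0507 to 0.16). Scaling to library totals alone also left both short of a call (0.0525 and 0.063). EFNA2 rose at very low level, with 8, 13 and 8 counts against 19, 25 and 17 counts (log2 fold change 1.12, SE 0.34, adjusted p = 0.0296). It passed the filter only with the KO-labelled group, so this p-value supports nothing by itself. The EFNA2 call was lost without parental-labelled 1, parental-labelled 3, KO-labelled 1 or KO-labelled 2 (0.06 to 0.12) and with DESeq2 (0.0995). EFNA4, EFNB1 and EFNB2 did not pass the test, with log2 fold changes of -0.09 to 0.13 and interval bounds of -0.40 to 0.39. Summed per length, the A-type ephrins stood at 97.3 ± 0.789 FPKM and 85.0 ± 13.1 FPKM. The B-type ephrins summed to 23.9, 23.9 and 24.1 FPKM against 27.6, 22.4 and 32.2 FPKM, with overlap.

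Of the 27 tested genes that did not pass the threshold, 18 averaged at least 20 CPM. Their log2 fold changes ran from -0.25 to 0.26 with 95% intervals between -0.60 and 0.71, which leaves room for changes of up to about that size, and their adjusted p ran from 0.0544 to 0.899. The remaining 9 (PLXNA4, EPHA6, EPHA10, NTN1, SEMA3A, SEMA3B, SEMA5B, SEMA6C and SEMA7A) had log2 fold changes of -0.50 to 0.58 and an adjusted p of 0.111 to 0.804. The 10 genes under the filter were DCC, EPHA8, NTN3, NTN5, NTNG1, ROBO2, ROBO4, SEMA4G, SEMA6A and SLIT2. All 10 were under 1 CPM in every library.

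The KO-labelled libraries differed more among themselves than the parental-labelled ones. The coefficient of variation was larger in the KO-labelled group for 47 of the 53 tested genes. KO-labelled 3 lay outside the range of KO-labelled 1 and 2 for 44 of them, 26 times as the highest and 18 times as the lowest. EPHB6, EPHA4 and NTN4 were highest there, and NEO1, UNC5A, UNC5B and SEMA4B lowest, as was RGMA. These counts were not taken over all tested genes, so they show no trait of axon guidance genes. The parental-labelled libraries came from wells of 1 plate and the KO-labelled ones from 3 populations. The part of this in the spread was not tested. SEMA3A, a secreted repellent, stood at 3.04, 2.38 and 2.76 CPM in the parental-labelled and 2.11, 2.72 and 7.39 CPM in the KO-labelled libraries, again with KO-labelled 3 far above the others, and it did not pass the test (log2 fold change 0.58, SE 0.44, adjusted p = 0.33).

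Some of these genes lie where most neighbouring genes changed in 1 direction. For each gene the median log2 fold change of the other tested genes within 10 Mb was taken from gene order in GENCODE (GRCh38), with 25 to 310 neighbours, and it exceeded 0.25 in size for 14 of the 53. The neighbours of SEMA4B, SEMA7A and NEO1 on chromosome 15 had medians of 0.78, 0.64 and 0.60, those of PLXNA3, PLXNB3 and EFNB1 on chromosome X 0.57, 0.54 and -0.64, and those of SEMA4F on chromosome 2 0.41. The medians around EFNA1, EFNA3 and EFNA4 on chromosome 1 were -0.33. In a fit relative to the neighbours, NEO1 kept a log2 difference of 2.35 (adjusted p = 1.9e-05), PLXNB3 of 1.08 (1.0e-04) and SEMA4B of 0.40 (0.0223). The calls of SEMA4F (0.04, adjusted p = 0.771), EFNA1 (-0.07, 0.699), EFNA3 (-0.28, 0.336), EFNA2 (0.84, 0.0898) and EPHB4 (0.22, 0.0615) were lost in that fit. EFNB1 (0.68, 0.0033), EFNA4 (0.46, 0.0164), PLXNA2 (0.43, 0.0350) and SEMA4C (0.45, 0.0473) stood above their neighbours, and SEMA7A stood below (-0.53, 0.0110). The neighbours of NRP1, NRP2, EPHB1 and ROBO3 had medians of 0.03, 0.08, 0.03 and 0.14, small beside the changes of these 4 genes. Copy number was not measured here, and its part in these values was not tested.

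**Figure D4:**
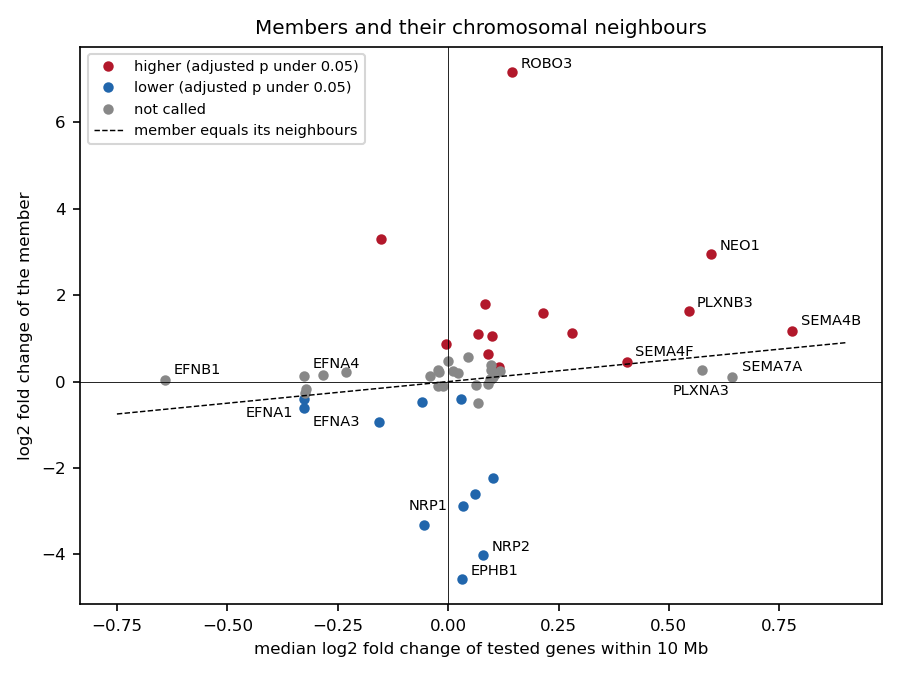
Log2 fold change of each tested axon guidance gene other than SLIT3 (y axis) against the median log2 fold change of the other tested genes within 10 Mb (x axis), coloured by the test; on the dashed line a gene equals its neighbours. SEMA4F and EFNA1 lie near the line, and ROBO3, NEO1, NRP1, NRP2 and EPHB1 lie far from it.

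Genes that act downstream of the receptors were followed with a fixed list of 47 intracellular transducers, of which 42 were tested. On this list 13 rose, 8 fell and 21 did not pass the test, so that 50% changed against 40.8% of all tested genes. Over 2-fold, 4 of the 42 changed (9.52% against 12.1%), and the median log2 fold change was 0.01, as over all tested genes. DPYSL5, a collapsin response mediator protein known from neurons, rose from 1.49, 0.516 and 0.997 CPM to 68.5, 57.1 and 62.2 CPM (log2 fold change 5.93, SE 0.23, adjusted p = 2.2e-06). Its neighbours had a median of 0.55, so it too changed far more than the genes around it. PAK1, a kinase activated by Rac and Cdc42, rose from a mean of 39.4 to 63.9 CPM (log2 fold change 0.70), and TRIO, an exchange factor for Rac, from 252 to 377 CPM (0.58). LIMK2, a kinase of the actin regulator cofilin, fell from 176 to 92.4 CPM (log2 fold change -0.93), and SRGAP3, a GTPase-activating protein that binds Robo receptors, from 27.2 to 15.6 CPM (-0.80). PTK2, the focal adhesion kinase, fell from 78.1 to 60.9 CPM (-0.36). Of 25 further ligands and coreceptors 20 were tested, with 8 higher and 4 lower (60% against 40.8% of all tested genes) and a median log2 fold change of 0.59 (0.01 over all tested genes). Of the 8 that were higher, 4 (DRAXIN, DSCAML1, FLRT1 and FLT1) passed the filter through the KO-labelled group only and had to differ, so these counts and the median describe the list and support nothing. Besides RGMA, the rises with the smallest p were DSCAML1 and FLRT1, both among these 4 genes, so their p-values support nothing by themselves. DSCAML1, a cell adhesion receptor, had 1 count against 95 over the groups (ratio 99.3, 95% counting interval 17.4 to 3963). FLRT1, a binding partner of UNC5 receptors, had 3 counts against 74 (ratio 25.8, interval 8.49 to 128). Among rises tested through both groups, ADAM17 had the smallest p after RGMA. It rose from a mean of 121 to 171 CPM (log2 fold change 0.50, edgeR adjusted p = 4.6e-04), and its neighbours had a median of 0.54. The falls with the smallest p were ADAM10, a protease that cleaves ephrins and their receptors, from 232 to 176 CPM (log2 fold change -0.40), ITGB1, a laminin and collagen receptor, from 276 to 212 CPM (-0.38), and PTK7, a Wnt pathway coreceptor that can bind plexins, from 261 to 222 CPM (-0.23). The ADAM10 and ITGB1 calls were lost on log2(FPKM + 1) values (limma adjusted p = 0.15 and 0.0573). The PTK7 call was lost without any one parental-labelled library or KO-labelled 2 (0.0612 to 0.0933) and relative to its neighbours (0.05, 0.607).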

How the data were processed

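Libraries were directional and poly(A)-selected, per the labels' protocols. The authors deposited whole-number counts by gene symbol and, in a second file, FPKM values. Named in the submitters' processing notes are STAR 2.4.0f1, Cufflinks 2.0.2, SAMtools 0.1.19 and hg19. The annotation, counting program, strand setting and filters were not given in the sources used here. Counts were tested with edgeR 4.0.16 (R 4.3.3) in all 6 libraries: filterByExpr defaults (minimum count 10, minimum total 15), TMM, the quasi-likelihood F test, and Benjamini-Hochberg adjustment over 17420 genes with a threshold of 0.05. SE is the log2 fold change over the square root of F, and 95% intervals use the test's degrees of freedom. A group of 0 counts was set to a floor of 3 counts, and counting intervals are exact binomial and cover counting error only. CPM use TMM library sizes. For the parental-labelled wells no separate cultures are stated, so p-values measure the spread between these samples, which may be technical.

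The members and lists were chosen with earlier results of these data known. Named in full were genes past the threshold with at least 2 CPM in a group, then those not past it with at least 20 CPM over all libraries. Up to 3 genes per direction and pathway list were named as well. RGMB was added as a relative of RGMA, and ADAM17 as the next rise tested through both groups. Positions from GENCODE (GRCh38) served for neighbourhood only and were found for 82.0% of the tested genes. There were 16 alternatives: other scaling (DESeq2 size factors, library totals), filters (none, 10 CPM in 3 libraries), DESeq2 1.42.0, limma 3.58.1 (voom, and log2(FPKM + 1) and log2(FPKM + 0.1)), glmTreat against 1.5-fold, a fit relative to neighbours, and leaving out each library. The edgeR step was tested on simulated counts.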

Additional observations from a re-analysis of the deposited data

Results flagged for a closer look

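SLIT1, a secreted Slit, is in the deposited FPKM table and has no entry in the count table, so it took part in no comparison. Its FPKM was 0.00611, 0.0142 and 0.0184 in the parental-labelled and 0.0561, 0.170 and 0.193 in the KO-labelled libraries. The lowest KO-labelled value lies above the highest parental-labelled value. The depth behind these values is unknown, and the difference was not tested.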

How the results depend on the processing

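Of the 26 axon guidance genes that changed, 14 kept their call in every alternative that tested them, and of the 27 that did not, 12 were never called. Against the 15 higher and 11 lower calls, a test against a 1.5-fold change gave 9 and 6, and the lower calls were 7 with the 10 CPM filter and 7 on log2(FPKM + 1) or log2(FPKM + 0.1). Leaving out a library gave 14 to 18 higher and 8 to 14 lower calls. For the 13 higher and 8 lower transducers the 1.5-fold test gave 4 and 2, and leaving out a library gave 10 to 14 and 6 to 16, the 16 without KO-labelled 3. For the 8 higher and 4 lower further ligands and coreceptors, higher calls were 3 with the 10 CPM filter and 5 on log2(FPKM + 1), lower calls were 1 on either FPKM scale and 0 in the 1.5-fold test, and leaving out a library gave 7 to 9 and 2 to 5. Over all genes, calls ran from 1923 in the 1.5-fold test to 9367 without KO-labelled 3 (7105 in the reported fit), and no scaling moved the median log2 fold change by more than 0.05. None of the 26 changed sign in any alternative, while 15 of the 27 others did in at least one. Among those 15 the value of opposite sign passed the threshold for EPHA4, which ran from -0.43 without KO-labelled 3 to 0.26 without KO-labelled 2, and for SEMA7A relative to its neighbours (-0.53). The cause was not tested. No paired analysis was possible because the labels carry no replicate numbers that link the groups. Without a filter on low counts all 63 genes were tested, with 17 higher and 11 lower.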
